A study of Microtus ochrogaster with 46 samples.

Results

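The genes described here were chosen by their mean RNA level in the nucleus accumbens of prairie voles (Microtus ochrogaster). In males at 24 h with a female partner the mean differed in the same direction from naive males and from males at 3 weeks. In females the mean differed little between 24 h and naive animals. There were 150 such genes among the 17479 genes of the table, 75 with a higher and 75 with a lower mean in males at 24 h. They were chosen from measured values. A mean normalized count of 50 or more was found for 12296 genes, of which 6223 had female means at 24 h and in naive animals within 0.1 of each other on the log2 scale. Of these, 5927 also had a correlation with Avpr1a, the vasopressin receptor 1a gene, within ±0.7 across females after group means were removed. The 5927 were then ranked by the smaller of the differences of males at 24 h from naive males and from males at 3 weeks, and the first 75 in each direction are the higher list and the lower list. These male differences, and the small female difference, are therefore properties of the choice and are given as a description. Where limma's calls on values that the rule used are counted, nothing is read from the count. The share of all genes stands beside it, except where alternatives such as leaving out 1 library are reported.

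The naive animals of each sex had been housed with a littermate of their own sex for 3 weeks, while paired animals lived for 24 h or 3 weeks with a partner of the other sex, so a change of cage mate cannot be told apart from the bond itself. By the sample titles, females comprised 10 naive, 10 paired for 24 h and 9 paired for 3 weeks, and males 6, 6 and 5 in the same order, with 1 RNA-seq library each. The text of the series gives another number for females at 3 weeks. The labels name no altered gene and no drug, and the ages were not given in the sources used here. Estimated depth ran from 15.4 to 37.8 M reads per library (M for mega), and group means lay between 27.4 ± 5.32 M (SD, n = 6, naive males) and 31.6 ± 2.2 M (n = 5, males at 3 weeks).

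Prairie voles are socially monogamous, and mating and cohabitation with a partner lead to a lasting preference for that partner, with selective aggression towards strangers appearing as the bond is kept. The nucleus accumbens is the part of the ventral striatum in which dopamine, oxytocin and vasopressin receptors are known to act in this behaviour. A gene whose RNA changes early after pairing and later returns is commonly described as transient. The rows of the table carry gene identifiers with no symbols apart from Avpr1a, and the RefSeq table used here matched 0 of the 17478 identifiers. No member could therefore be given a name, a role or a sequence, members are called by their rank, and identifiers are given only for ranks 1 and 2 of each list. Markers of neurons, glia and the punched region could not be looked up for the same reason, so the labelled tissue was not checked. In tissue punches a lower level from fewer cells of a type cannot be told apart from less RNA per cell.

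The males at 24 h differed from the other males in gene-specific normalization factors inferred from the deposited values. In genes with a mean count under 50, which hold none of the members, values of up to 3 reads show what 1 read was worth in each gene and library. Libraries were clustered on these gene-specific factors, with the number of clusters fixed beforehand. One pattern, here called B, held the 6 naive males and the 5 males at 3 weeks. The other, A, held the 6 males at 24 h and all 29 females. The cause of the patterns was not tested. With pattern A at 0 and pattern B at 1, naive males lay between 0.69 and 1.19, males at 3 weeks between 0.61 and 0.98, males at 24 h between -0.31 and 0.14, and females between -0.21 and 0.39. The factors differed between males at 24 h and naive males by -0.16 to 0.13 on the log2 scale (5th and 95th percentiles over 588 genes), and between males at 24 h and at 3 weeks by -0.17 to 0.11 (398 genes). Between females at 24 h and naive females the percentiles were -0.035 and 0.036 (1558 genes), and between males and females at 24 h -0.041 and 0.029 (958 genes). A factor beyond 0.25, the least difference in the lists, was counted in 1.70% and 2.26% of these genes in the male comparisons. Values more than 0.35 away from 1, 2 or 3 reads were not used, which drops some large factors. These shares and percentiles can therefore be too small, and factors of the members themselves were not measured. The patterns divide the male groups exactly as the lists do, so the time with a partner and the normalization pattern cannot be told apart in males.

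**Figure D1:**
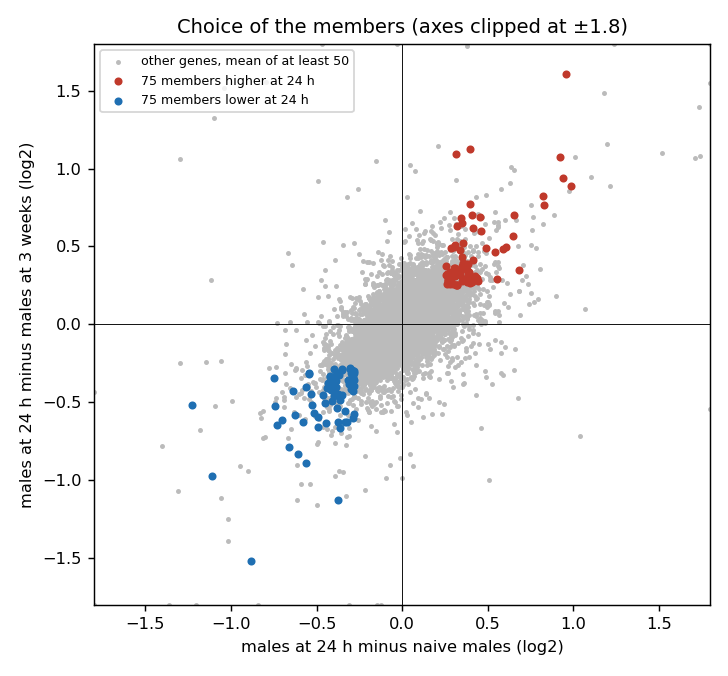
Log2 difference of males at 24 h from naive males (horizontal) and from males at 3 weeks (vertical), 1 point per gene whose mean was 50 or more, with differences beyond 1.8 drawn at the edge. The higher list (red) and the lower list (blue) occupy the corners past 0.252 and 0.279 on both axes, and the grey genes among them failed the female or the Avpr1a limit.

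In the higher list the difference of males at 24 h from naive males ran from 0.25 to 0.99 on the log2 scale, with a median of 0.35. From males at 3 weeks it ran from 0.25 to 1.61, with a median of 0.36. In the lower list the differences ran from -1.23 to -0.28 (median -0.39) and from -1.52 to -0.28 (median -0.42). Over all 14455 genes tested both medians were within 0.01 of 0 (0.0017 and 0.0046). The limit of 75 cut through a crowd of near-equal values. The last 3 genes inside the higher list had a smaller difference of 0.254, 0.253 and 0.252 and the first 3 outside had 0.2498, 0.249 and 0.249. The corresponding values of the lower list were 0.281, 0.280 and 0.279 inside and 0.279, 0.278 and 0.278 outside.

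The members were less abundant and more variable than the genes they came from. Their median normalized count was 228 in the higher list and 214 in the lower list, against 762 for all 12296 genes. The median SD within groups was 0.36 and 0.34 on the log2 scale, against 0.19. Ranking on differences that are not divided by the spread favours variable genes. The smaller male difference was larger than the member's own SD within groups in 33 of the 75 higher and 44 of the 75 lower members, and larger than 2 SDs in 4 and 7. Spread was widest at the top of the ranking, where the median SD of ranks 1 to 10 was 0.80 in the higher list and 0.49 in the lower list, against 0.23 and 0.21 in the last 10 ranks.

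The rank 1 and 2 members show what kind of values led the lists. ENSMOCG00000002174, rank 1 of the higher list, had log2 levels of 3.93, 5.01 and 5.97 (lowest, median and highest) in naive males and 5.37, 5.84 and 6.79 in males at 24 h. The 5 males at 3 weeks had 5.05, 5.78, 5.62, 0 and 5.22. The males at 24 h overlapped both other groups, and 1 male at 3 weeks was listed at 0. Naive females stood at 4.28, 5.38 and 7.13, females at 24 h at 2.28, 5.49 and 7.06, and females at 3 weeks at 4.82, 5.92 and 6.96, so females covered the whole male range apart from that 0.

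ENSMOCG00000016383, rank 2 of the higher list, had a mean normalized count of 2246 and spread widely within groups. The 6 males at 24 h had 11.30, 11.68 and 11.76 (lowest, median and highest). Naive males had 10.12, 10.40 and 11.56, and the males at 3 weeks had 10.34, 11.11, 10.43, 10.23 and 11.11. Levels under 11 were found in 4 of 6 naive males, 3 of 5 males at 3 weeks and 0 of 6 males at 24 h, and in 4 of 10 naive females, 4 of 10 females at 24 h and 4 of 9 females at 3 weeks. Values on both sides of 11 thus occurred in each group but the males at 24 h. Both the level of 11 and the count were set after the values were seen, and neither was tested. Females covered 10.31 to 11.81 when naive, 10.44 to 11.85 after 24 h and 10.48 to 11.59 after 3 weeks.

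ENSMOCG00000003055, rank 1 of the lower list, was listed at 0 in 1 male at 24 h, where the median of the 6 was 5.83 and the highest 6.26. Naive males had 5.23, 6.01 and 6.61, and the males at 3 weeks 5.73, 4.51, 6.46, 5.68 and 6.74. The library at 0 was male 24 h replicate 1, and the other 5 males at 24 h lay between 5.11 and 6.26, inside the range of the remaining males. It was also listed at 0 in 1 naive female and 1 female at 24 h, with female medians of 5.99, 5.87 and 5.97 in naive animals, at 24 h and at 3 weeks. ENSMOCG00000010223, rank 2, spread from 1.87 to 5.80 in males at 24 h (median 4.73) and from 2.56 to 7.03 in naive males (median 5.58). The males at 3 weeks had 6.23, 6.03, 6.49, 6.50 and 3.71, and 1 female of each group was listed at 0, so this gene varied more within groups than between them. Only 1 member of the higher list and 3 of the lower list had any library at 0.

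**Figure D2:**
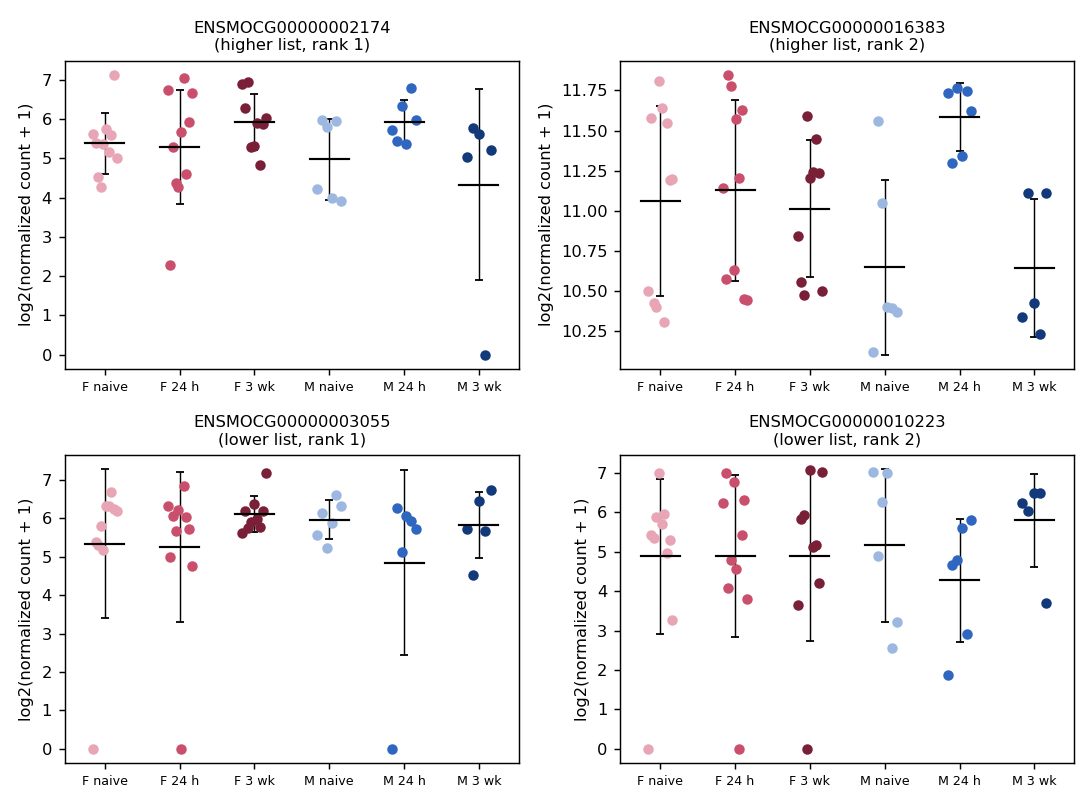
Log2(normalized count + 1) of the rank 1 and 2 members of each list, 1 point per animal, with the mean (bar) and SD (whiskers) of each group of females (F) and males (M). The males at 24 h overlap other males in all 4 panels, and 3 of the 4 genes have libraries at 0.

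Tighter members stood lower in the ranking. In the male comparisons that chose the members, 2 of the 75 higher members passed as higher in males at 24 h than in naive males, where 0.083% of all genes passed in that direction, and the same 2 passed against males at 3 weeks (0.0484% of all genes). Of the lower members 5 passed as lower than in naive males (0.159%) and 2 of these also as lower than at 3 weeks (0.0208%). The rule picked the members on these differences, so nothing is read from the counts. Leaving out 1 library gave 1 to 3 higher and 3 to 6 lower members against naive males. All 6 males at 24 h lay above the other 11 males in 2 of the higher members, where this holds for 0.104% of all genes, and below them in 4 of the lower members (0.228% of all genes).

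The 2 higher and 2 lower members past the threshold in both comparisons are shown for their values in each animal, and their separation among males follows from how they were picked. The rank 7 higher member had 8.69, 8.82 and 9.12 in males at 24 h (lowest, median and highest), 7.99, 8.17 and 8.39 in naive males, and 8.09, 7.70, 8.42, 7.89 and 8.53 in the males at 3 weeks. The rank 23 higher member, one of the least variable with an SD within groups of 0.10, had 8.48, 8.56 and 8.67 in males at 24 h. It had 8.08, 8.19 and 8.34 in naive males and 8.28, 8.18, 8.09, 8.19 and 8.18 at 3 weeks. In both genes every male at 24 h was above every other male, and the female medians lay with the males at 24 h. Means of the rank 23 member were 8.54 ± 0.14 (SD) in the 10 naive females, 8.60 ± 0.09 in the 10 females after 24 h and 8.59 ± 0.09 in the 9 after 3 weeks, against 8.58 ± 0.08 (n = 6) in males at 24 h.

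The rank 4 lower member had 8.4, 8.76 and 8.91 in males at 24 h, 9.27, 9.38 and 9.87 in naive males, and 9.24, 9.36, 9.62, 9.48 and 9.18 at 3 weeks. The rank 17 lower member had 8.23, 8.29 and 8.44 in males at 24 h, 8.62, 8.75 and 8.91 in naive males, and 8.67, 9.10, 8.60, 8.88 and 8.76 at 3 weeks. Again no male at 24 h reached another male, and the female medians lay near those of the males at 24 h. Female means of the rank 17 member were 8.38 ± 0.17 (SD, n = 10), 8.38 ± 0.13 (n = 10) and 8.4 ± 0.11 (n = 9) in the order naive, 24 h and 3 weeks, with 8.30 ± 0.08 (n = 6) in males at 24 h. Lower members of ranks 20, 21 and 60 passed against naive males alone. In rank 20 males at 24 h (6.83 to 7.17) overlapped males at 3 weeks (7.01 to 7.89), and females at 24 h lay above them (7.26 to 7.69). In ranks 21 and 60 females at 24 h (9.34 to 9.54 and 8.75 to 9.09) overlapped males at 24 h (9.39 to 9.61 and 8.88 to 9.05).

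**Figure D3:**
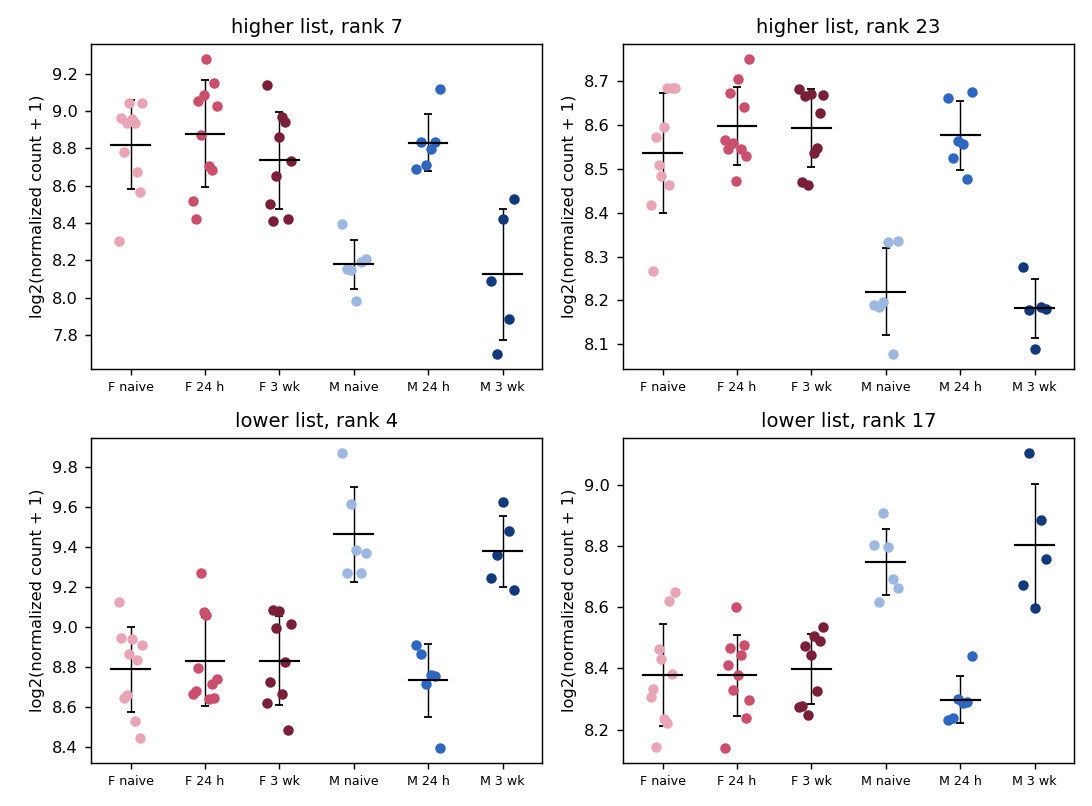
Log2(normalized count + 1) of the 4 members past limma's threshold in both male comparisons, 1 point per animal, with the mean (bar) and SD (whiskers) of each group. Naive and 3 week males lie apart from males at 24 h, and the means of the 3 female groups lie near that of the males at 24 h.

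The place of females between the male groups varied over the members. With the mean of naive and 3 week males set to 0 and the mean of males at 24 h to 1, females stood at a median place of 0.57 (quartiles 0.14 and 0.90) in the higher list and 0.63 (0.44 and 0.87) in the lower list. In the higher list females were nearer to males at 24 h, or beyond them, in 41 members (26 and 15) and nearer to the other males, or beyond those, in 34 (23 and 11). In the lower list these numbers were 51 (37 and 14) and 24 (15 and 9). By the size of the smaller male difference, the median place in the higher list was 0.93 over 2 SDs (4 members), 0.57 at 1 to 2 SDs (29) and 0.47 at 1 SD or less (42). In the lower list it was 0.88 (7 members), 0.60 (37) and 0.65 (31). Since the male values chose the members, these places describe the lists and were not tested.

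Differences between the sexes hold the same male means, so their change of sign at 24 h follows in part from the choice. In the higher list males were below females by a median of 0.21 in naive animals and of 0.22 at 3 weeks (log2 differences of -0.21 and -0.22), and above them by 0.17 at 24 h. In the lower list the log2 differences were 0.25 and 0.27 in naive animals and at 3 weeks and -0.14 at 24 h. The medians over all genes were -0.0042, 0.0010 and -0.0058 in naive animals, at 3 weeks and at 24 h. By limma 4 higher members passed as lower in naive males than in naive females (1% of all genes) and 5 at 3 weeks (1.66%). Of the lower members 12 passed as higher in naive males (1.28%) and 10 at 3 weeks (1.53%), and these 10 were all among the 12. At 24 h 0 members of either list passed by limma, with 12 higher and 13 lower members at an unadjusted p under 0.05 in the direction of their list, where 0.00692% of all genes passed in each direction and 11.5% were at an unadjusted p under 0.05 in either direction. Nothing is read from these counts.

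Males at 3 weeks stood close to naive males in the lists, as the choice also favours, and over all genes as well. The difference of males at 3 weeks from naive males had a median of -0.0047 (quartiles -0.07 and 0.06) in the higher list and 0.03 (-0.06 and 0.11) in the lower list. It was within 0.1 of 0 in 46 and 45 of the 75 members and ran from -0.78 to 0.33 and from -0.71 to 0.75. By limma 0 members of either list passed (0 of 14455 genes in all, 0%), with 0 higher and 1 lower member at an unadjusted p under 0.05, against 2.38% of all genes.

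The means of females at 3 weeks were not used in the ranking. Comparisons with them are independent of the rule only in part, as the rule held the other female groups within 0.1 of each other and its Avpr1a limit used all females. Against naive females 0 higher and 0 lower members passed by limma, as did 0% of all genes. At an unadjusted p under 0.05, 0 higher members were higher and 1 lower at 3 weeks, and 2 lower members were higher and 1 lower, where 2.54% of all genes were higher and 2.37% lower. The smallest adjusted p among the members was 0.893 by limma in each list. The differences had a median of -0.01 in the higher list and 0.04 in the lower list, with a typical SE of 0.16 and 0.15 per member, and -0.0045 over all genes. Against females at 24 h 0 members passed either (0% of all genes). At an unadjusted p under 0.05, 0 higher members were higher and 2 lower, and 2 lower members were higher and 2 lower, with 4.16% and 4.48% of all genes. The medians were -0.03 and 0.04, and the smallest adjusted p by limma was 0.4996 in the higher and 0.544 in the lower list.

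The word "only" in a list of genes changed in males only was set by the rule. With no limit on the female difference, 56 of the first 75 higher and 55 of the first 75 lower genes would have had female means at least 0.1 apart. Of the 56, the females at 24 h differed in the male direction in 25 and in the opposite direction in 31, and of the 55 in 28 and 27. For the members themselves the typical SE of the female difference at 24 h was 0.15 in each list, so a mean difference under 0.1 left changes of that size within the error. By limma 0 members of either list passed between females at 24 h and naive females, where 0.0346% of all genes passed as higher and 0.0692% as lower and the rule favours a count of 0, and 0 members had an unadjusted p under 0.05, against 19.4% of all genes. The difference between the sexes in the change at 24 h is made of the differences that the rule used, and it passed by limma in 0 higher members (0% of all genes passed in that direction) and in 1 lower member, rank 4 (0.0484%).

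Each library's median over the members, taken as the log2 difference from the mean of the 3 female group means, shows how evenly the animals of a group followed the lists. In the higher list the median was 0.175 ± 0.079 (SD, n = 6) in males at 24 h, -0.187 ± 0.149 (n = 6) in naive males and -0.213 ± 0.083 (n = 5) in males at 3 weeks. In the lower list it was -0.118 ± 0.031, 0.253 ± 0.124 and 0.298 ± 0.060. The 6 males at 24 h did not overlap the other males in either list, as the choice favours. Naive male replicate 5 lay nearest to the females of its group, at 0.012 in the higher and 0.038 in the lower list. Female libraries ran from -0.242 to 0.115 in the higher list and from -0.136 to 0.123 in the lower list. The all-gene median of the same libraries stayed between -0.0092 and 0.013.

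The size of these differences was then measured in animals that had no part in the choice. Each male library was left out in turn, the lists were chosen again without it, and its median over the new lists was taken against females. In the higher list the left-out males at 24 h stood at 0.020, 0.027, 0.028, -0.212, 0.124 and 0.032 (replicates 1 to 6), a mean of 0.0031 ± 0.112 (SD, n = 6). Left-out naive males had -0.221, 0.078, -0.231, -0.057, 0.168 and -0.064, a mean of -0.055 ± 0.159 (n = 6). Left-out males at 3 weeks had -0.208, -0.040, -0.044, -0.117 and 0.011, a mean of -0.080 ± 0.085 (n = 5). The 3 groups overlapped, and the left-out males at 24 h were at the level of females.

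In the lower list the left-out males at 24 h stood at 0.012, 0.029, -0.0021, 0.117, -0.014 and 0.083, a mean of 0.037 ± 0.052 (SD, n = 6), and not below females. Left-out naive males had 0.270, -0.030, 0.212, 0.169, -0.084 and 0.103, a mean of 0.107 ± 0.139 (n = 6). The 5 left-out males at 3 weeks had 0.229, 0.196, 0.230, 0.113 and 0.187, a mean of 0.191 ± 0.048 (n = 5), and 4 of them lay above every left-out male at 24 h. The lists changed with each choice. Of the 75 members 51 to 62 higher and 53 to 57 lower ones were chosen again when a male at 24 h was left out, and 4 higher and 11 lower members were chosen in each of the 46 choices that left out 1 library.

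**Figure D4:**
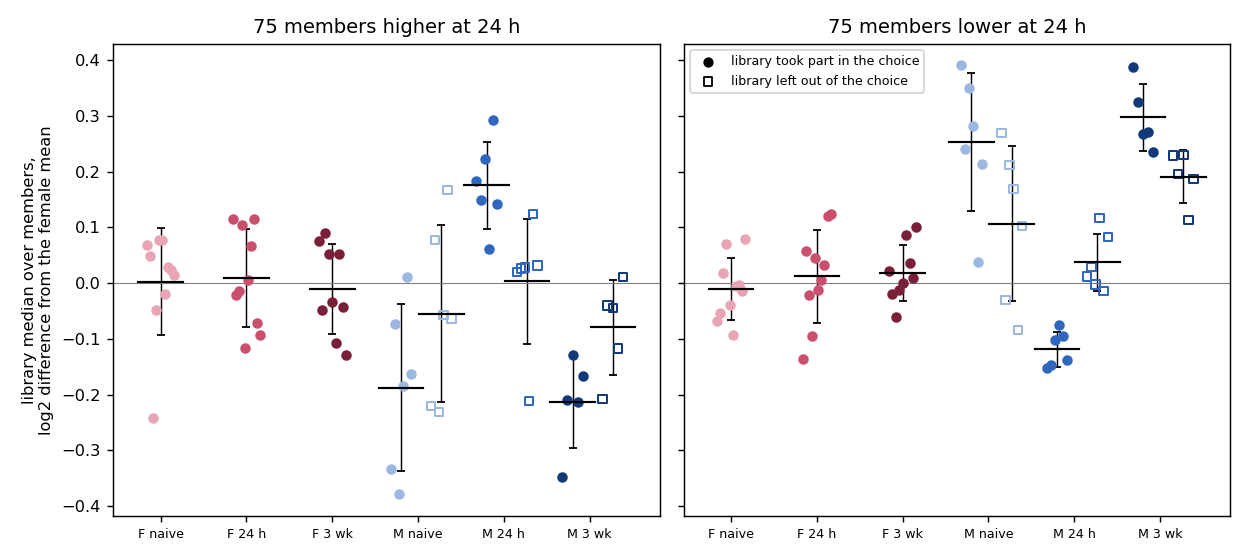
Library median over the members of each list, as the log2 difference from the mean of the 3 female group means, with the group mean (bar) and SD (whiskers). Filled points took part in the choice and are medians over the 75 members. Open squares are males left out, each over the list chosen again without it, so the genes differ in part. Means of males at 24 h were 0.175 (filled) and 0.0031 (open) in the higher list, and -0.118 and 0.037 in the lower list.

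Library medians were set against the position between the normalization patterns. The 3 female libraries that lay farthest towards pattern B were 24 h replicate 8 at 0.25, 3 week replicate 3 at 0.25 and 3 week replicate 7 at 0.39. Their medians were 0.114, 0.091 and 0.053 in the higher list and 0.032, -0.061 and 0.036 in the lower list, and all 3 lie well inside pattern A. Naive male replicate 5, which stood near the females, lay at 0.84. With the position as a term in the model, an alternative chosen after seeing the data, the median difference of males at 24 h from naive males was 0.43 in the higher and -0.40 in the lower list. The typical SE per member rose from 0.20 to 0.39 and from 0.19 to 0.39, and 0 members passed by limma, as did 0 of all genes, of which 35 passed without the term. Against males at 3 weeks the medians with the term were 0.44 and -0.45, and 0 members and 3 genes in all passed, of 10 without it. Position split males at 24 h from the other males without overlap, so the term nearly repeats the comparison and widens its SE. The medians and counts with the term cannot tell the pattern from the time with a partner.

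**Figure D5:**
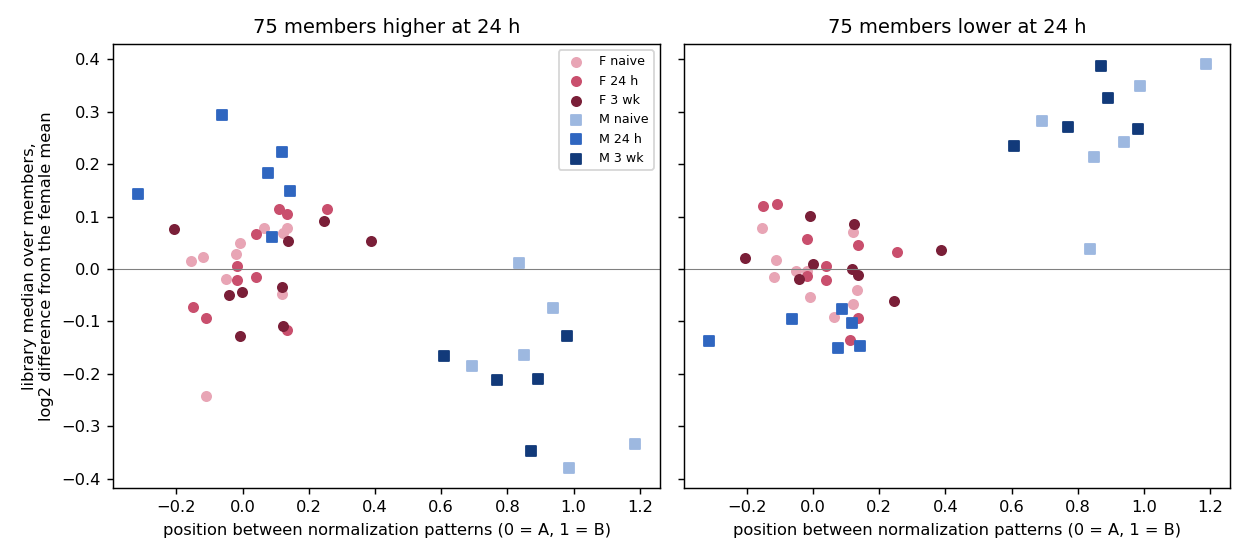
Library median over the members of each list (vertical, log2 difference from the female mean) against the library's position between the normalization patterns (horizontal, 0 for A and 1 for B), 1 point per library. Naive and 3 week males lie beyond 0.60 on the horizontal axis, and males at 24 h lie with females below 0.40.

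Within groups the median correlation between members was near 0, and pairs of other genes were not computed for comparison. The median correlation between pairs of members, over 2775 pairs and after group means were removed, was 0.04 across the 29 females and 0.07 across the 17 males in the higher list, and 0.04 and 0.05 in the lower list. Quartiles in the higher list were -0.13 and 0.22 across females and -0.14 and 0.26 across males. In the lower list they were -0.12 and 0.19 across females and -0.16 and 0.25 across males. These pairs share libraries, and the values are a description. Correlation with Avpr1a, which the rule limited in females alone, had a median of 0.06 across males in the higher list (range -0.48 to 0.81) and -0.03 in the lower list (-0.58 to 0.73), against 0.0073 over the 12296 genes.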

How the data were processed

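Poly(A) RNA of nucleus accumbens punches was made into libraries with random hexamers and a kit that does not mark strand, NEBNext Ultra, per the labels' protocols. The submitters' processing notes name, in no order, Salmon 0.12, DESeq2, FastQC 0.11.7, bcl2fastq 2.20.0.422 and fastp 0.14.1. The build is not given in the sources used here, nor is the annotation. The authors deposited a single table whose unit, judged from its values, is log2 of a normalized count plus 1. The normalization has a gene-specific part, so the values give no whole reads to which a count model could be fitted. The value of 1 read was the step between the lowest values of a library, and depth was the unlogged total divided by it.

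The fit was limma 3.58.1 (R 4.3.3) on log2(normalized count + 1), with a pseudocount of 1, 6 group means over 46 libraries, a mean-variance trend and robust variances. It covered the 14455 genes with a mean of at least 10, with Benjamini-Hochberg adjustment and a threshold of 0.05, and was tested on simulated data. Selection and library values used Python 3.11.15, and clustering scipy 1.17.1. The gene-specific factors came from values within 0.35 of 1 to 3 reads in genes with a mean under 50 seen in at least 5 libraries, and in at least 3 per group for differences. The named members were ranks 1 and 2 of each list, those passing a test and those at the limit of 75. The members, lists and tests were chosen with earlier results of these data known. The series' text counts 46 voles, 1 per library, so p-values measure the spread between animals. Replicate numbers did not pair the samples. The alternatives were pseudocounts, filters, scalings, array weights, a fit of 2 groups, the block, left-out libraries and other limits of the rule.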

Additional observations from a re-analysis of the deposited data

Results flagged for a closer look

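In 42 sets of 5 to 10 values a library was looked for whose gap to its nearest neighbour was a large share of the group's range (Dixon's limit at 95%), and 11 were found. The limit passes about 1 in 20 sets by chance only where values are normal and the sets were not picked. Naive female replicate 3 had a median of -0.242 over the higher list, with the next at -0.048. Male 24 h replicate 4, left out of the choice, had -0.212 over the higher list, with the next at 0.020. The other 9 came from the rank 1 and 2 members, which the rule picked for large differences of means, so 1 in 20 is no baseline for them. ENSMOCG00000002174 stood at 7.13 in naive female replicate 9 (next 5.74) and was listed at 0 in male 3 week replicate 4 (next 5.05). ENSMOCG00000003055 was listed at 0 in naive female replicate 1, female 24 h replicate 6 and male 24 h replicate 1, with the next values at 5.17, 4.75 and 5.11, and stood at 7.19 in female 3 week replicate 9 (next 6.37). ENSMOCG00000010223 was listed at 0 in female 24 h replicate 7 (next 3.81) and female 3 week replicate 4 (next 3.64), and stood at 3.71 in male 3 week replicate 5 (next 6.03).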

How the results depend on the processing

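The counts of members passing in females at 3 weeks were 0 under every alternative run, with list medians between -0.046 and 0.057. Counts passing in males moved. Against naive males, where 2 higher and 5 lower members passed, there were 5 and 10 with array weights, 1 and 0 in a fit of the 2 groups, and 0 and 0 with the normalization position as a term. Against males at 3 weeks, where 2 and 2 passed, the fit of the 2 groups and the position term gave 0 and 0. For lower members array weights gave 13, a stricter minimum mean gave 4 and the replicate block gave 4. The numbers gave no pairing: 44 same-numbered pairs of libraries correlated at -0.22 to 0.30 (median 0.0046), and a library correlated best with its own number in 11 of 88 comparisons. Leaving out 1 library gave 1 to 3 higher and 3 to 6 lower members against naive males and 1 to 2 and 1 to 3 against males at 3 weeks. Against naive males the higher count was 1 without naive replicate 2 or 4 or 24 h replicate 5 or 6, and the lower count 3 without naive replicate 1 or 2 or 24 h replicate 3 or 5. Against 3 week males the higher count was 1 without 24 h replicate 2, 5 or 6 or 3 week replicate 1, 2 or 4, and the lower count 1 without 24 h replicate 6 or 3 week replicate 4. Medians in males moved by less than the spread between libraries.

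Which genes were members depended on the limits. Of the 75 higher and 75 lower members, a female limit of 0.05 kept 39 and 41, of 0.2 kept 37 and 38, and no female limit 19 and 20. Group medians in place of means kept 31 and 28, and a minimum mean of 20 kept 46 lower members. Leaving out 1 library kept 49 to 75 higher (49 without female 24 h replicate 1) and 53 to 75 lower members. Pattern B held 11 libraries by clustering and by position, but the position was measured between the clusters, so this match was close to fixed in advance. The normalization pattern as a term was not run, because pattern B held only naive and 3 week males. That leaves no library to separate it from the groups. The position replaced it, and it too split males at 24 h from the other males without overlap. The cause of each move was not tested. Libraries at 0 limit what the means of those members show. In ENSMOCG00000002174 the male 3 week library at 0 stood beside normalized counts of 32.0 to 53.8 in its group, and the cause was not tested.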
